A study of Mus musculus with 6 samples.

Results

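A2 markers are genes that mouse astrocytes raise above all after ischaemic injury, and 8 of them are described here in cultured astrocytes exposed to an inflammatory cytokine: Clcf1, Tgm1, S100a10, Sphk1, Cd109, Emp1, Slc10a6 and Tm4sf1. They were taken by name from a published panel of 12 genes, by a choice made with earlier results of these data known, and the 4 not among them include 2 that rose, Ptx3 and Cd14. All 8 had a probe set of their own among the 19926 genes tested. The data came from primary astrocytes of C57BL/6J mice. The 3 TNF samples had received tumour necrosis factor at 50 ng/mL, and they and the 3 controls were collected at 24 h; the labels name no other genotype, inhibitor or stimulus. Each sample was hybridised to 1 Affymetrix Mouse Gene 1.0 ST array, which measures transcripts with many probes along their length. Values are log2 signals, a difference is TNF minus control on that scale, and a gene is called where the limma adjusted p over all genes was under 0.05. Whether the replicates of a group were grown from different animals is not stated, and the p-values cover the spread between these 6 samples only, which may be technical.

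Reactive astrocytes are astrocytes that change their shape and gene expression after injury or inflammation. In mice, genes raised preferentially by systemic endotoxin were named A1, genes raised preferentially after ischaemia A2, and genes raised by both pan-reactive. A2 astrocytes were proposed to support repair, and the split is now regarded as a simplification of many reactive states. The A2 genes share no single biochemical role: they encode a cytokine, a lipid kinase, a transglutaminase, an annexin partner, a TGF-beta co-receptor, a steroid sulfate transporter and tetraspan membrane proteins. TNF acts through NF-kB and MAP kinases, whereas cytokines of the gp130 family, to which Clcf1 belongs, act through JAK kinases and STAT3.

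None of these 8 A2 markers was called higher with TNF, and 2, Emp1 and Cd109, fell; the count does not stand for the whole panel, in which 2 of 12 genes rose and 2 fell. For comparison, 3.87% of all genes tested were called higher and 3.33% lower. The median difference of the 8 genes was -0.31, against -0.0033 over all genes, and 5 of the 8 differences were negative. At an unadjusted p under 0.05, 1 marker was higher (Tgm1) and 3 were lower (Cd109, Emp1 and S100a10), against 9.15% and 9.73% of all genes; every later count at this level has the same background. The median ran from -0.34 to -0.17 when single arrays were left out. All TNF arrays lay above all controls for 1 marker, Tgm1, a pattern seen in 12.3% of genes, and below all controls for Emp1 and Cd109, a pattern seen in 11.7%.

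Control and TNF samples carry the same replicate numbers, and their values paired by number. With the replicate number as a block, 1 A2 marker was called higher (Tgm1) and 3 lower (Emp1, Cd109 and S100a10). In that fit 9.73% of all genes were higher and 11.8% lower. Sphk1, Clcf1, Slc10a6 and Tm4sf1 passed in neither fit.

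**Figure D1:**
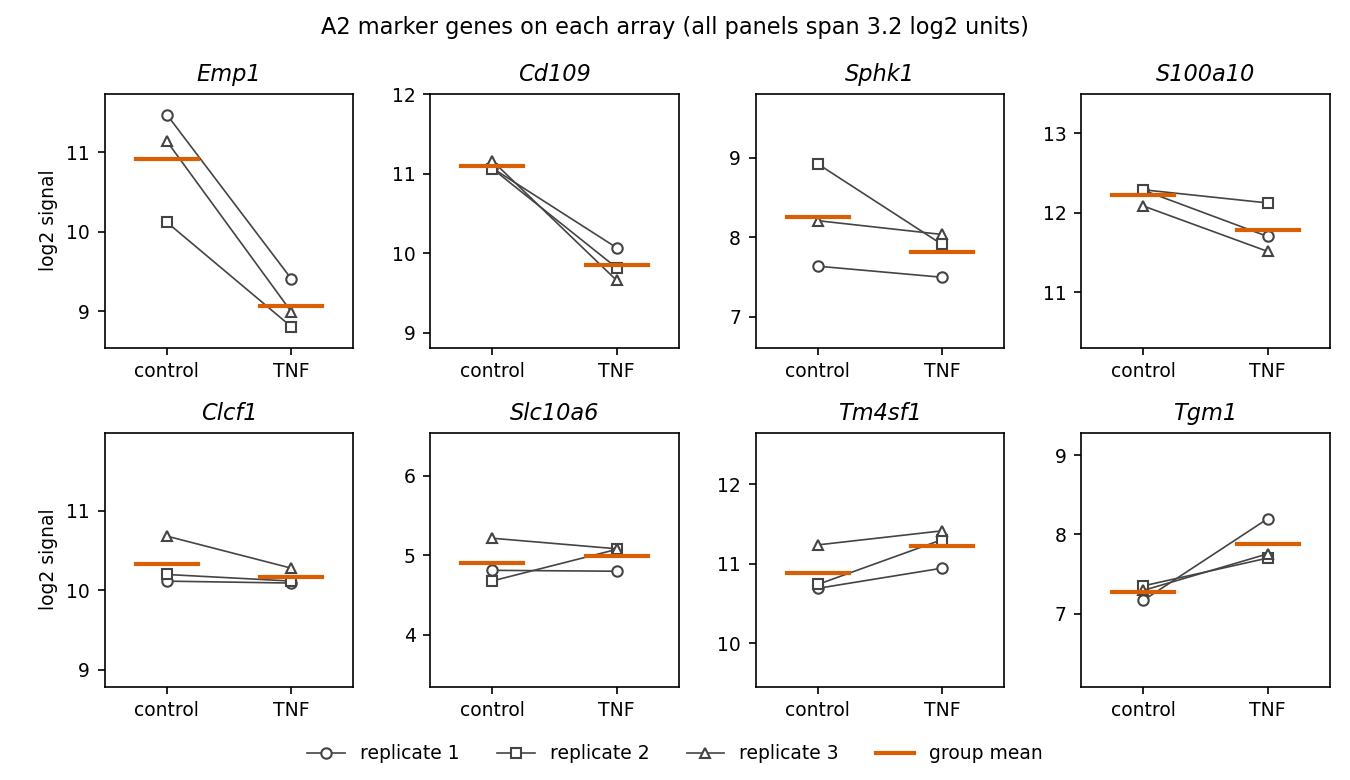
Log2 signal of the 8 A2 markers on each array, control and TNF, with samples of the same replicate number joined and bars at the group means. Emp1 and Cd109 are lower on all 3 TNF arrays than on any control, Tgm1 is higher on all 3, and the groups overlap for the other 5 genes.

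**Figure D2:**
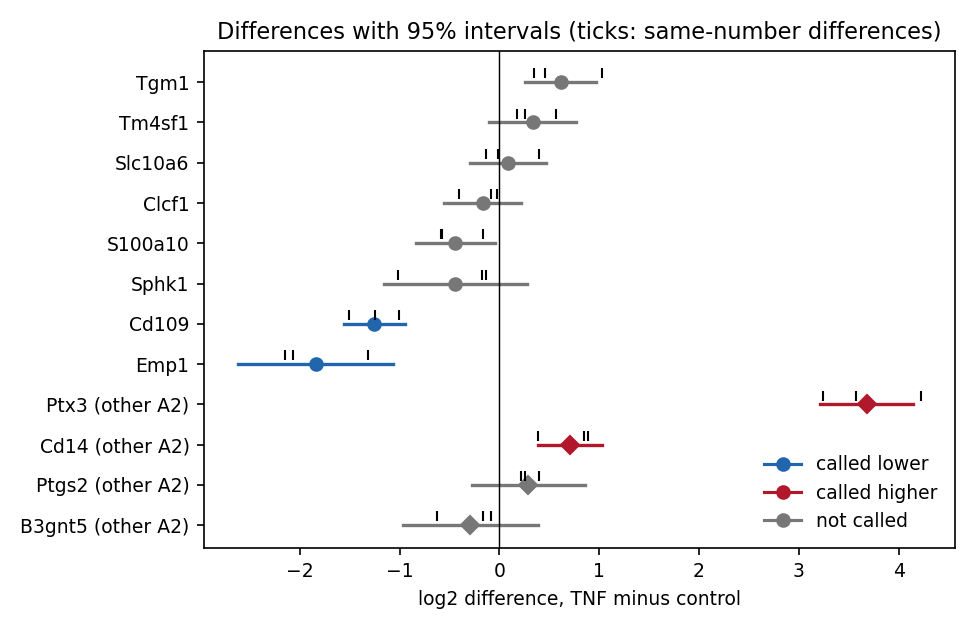
Log2 difference, TNF minus control, of the 8 members (circles) and the 4 other genes of the published A2 panel (diamonds), with 95% intervals from limma and ticks for the difference within each replicate number. The differences run from -1.84 for Emp1 to 0.61 for Tgm1 among the members, and reach 3.68 for Ptx3 among the others.

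Promoter sequence is shown for Emp1, called lower, and Tgm1, whose TNF arrays all lay higher, since they moved in opposite directions. The 250 bases before the first listed start are from RefSeq on GRCm38.p6; Emp1 lies at chr6:135362681-135362930 on the plus strand and Tgm1 at chr14:55713493-55713742 on the minus strand. Capitals mark matches, on either strand, to 3 motifs: AP-1 (TGANTCA), STAT (TTCNNNGAA) and the NF-kB consensus.
Emp1: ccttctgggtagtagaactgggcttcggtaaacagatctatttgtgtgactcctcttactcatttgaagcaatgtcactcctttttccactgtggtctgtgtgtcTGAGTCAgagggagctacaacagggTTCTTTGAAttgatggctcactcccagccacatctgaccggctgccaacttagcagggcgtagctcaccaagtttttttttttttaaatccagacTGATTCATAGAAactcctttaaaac
Tgm1: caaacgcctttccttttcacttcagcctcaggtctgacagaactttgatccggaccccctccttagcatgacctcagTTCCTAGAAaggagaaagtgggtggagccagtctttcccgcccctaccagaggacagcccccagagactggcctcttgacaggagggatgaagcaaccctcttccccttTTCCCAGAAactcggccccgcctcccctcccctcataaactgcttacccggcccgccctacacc
The Emp1 window held AP-1 matches starting at -145 and -25 and STAT matches at -120 and -22, the pair nearest the start overlapping. The Tgm1 window held STAT matches at -173 and -64. Neither window held the NF-kB letters. Both genes have a second listed start, and the 250 bases before it held no match to any of the 3 motifs. Of 32851 windows of this length, 6.75% held the AP-1 motif, 7.02% the STAT motif and 7.25% the NF-kB motif, so a match by itself describes letters only. Entries were found for 5 of the 8 genes, and Clcf1, S100a10 and Cd109 were the other 3. Sphk1, not shown, had 5 windows, and no single window held all 3 motifs. Window 1 held an NF-kB match, and windows 2 and 3, which overlap, held the same AP-1 and STAT matches. Windows 4 and 5 held none. The Tm4sf1 window held an NF-kB match only, and the Slc10a6 window held none.

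Emp1 showed the largest difference of the 8. It encodes epithelial membrane protein 1, a tetraspan protein of the PMP22 family found at the cell surface and in cell junctions. Controls 1, 2 and 3 gave log2 signals of 11.48, 10.12 and 11.14, and TNF samples 1, 2 and 3 gave 9.41, 8.81 and 9.00; values are listed in this order throughout. The lowest control, replicate 2, still lay 0.71 above the highest TNF sample, and the controls spread over 1.35. The difference was -1.84 (SE 0.33, n = 3 per group, adjusted p = 0.0163), a 3.58-fold lower signal, which ranked 19912 of 19926 genes from the most positive down. It was -2.06, -1.31 and -2.14 within numbers 1, 2 and 3. The call was lost without control 1 (adjusted p = 0.0533), without control 3 (0.0571), without TNF 2 (0.0586), without replicate 3 in both groups (0.161) and without replicate 1 in both groups (0.0992).

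The order of the Emp1 signals within each group was that of the mean of the ependymal markers, genes of the ciliated cells that line the ventricles. The mean signal of 8 such markers was 7.91, 7.15 and 7.68 in the controls and 7.35, 6.95 and 7.19 in the TNF samples, lowest in replicate 2 and highest in replicate 1 of both groups. Single markers did not all share this order. With TNF, Dnah11, Rsph1, Dnah5 and Foxj1 did, while Ccdc153, Spag17 and Tmem212 were lowest in replicate 1 and highest in replicate 3. Rsph4a, with the largest difference of the 8 (-1.59, adjusted p = 0.135), gave 8.19, 6.68 and 6.68 with TNF, nearly tied in replicates 2 and 3. None of the 8 markers was called, and 4 were called lower with the replicate block. Microglia markers, 11 genes, were also lowest in replicate 2, with means of 7.09, 6.42 and 7.76 and then 7.40, 6.49 and 7.81, and none was called (2 higher with the block). None of the microglia markers had an unadjusted p under 0.05, and 3 of the 8 ependymal markers were lower at that level (9.73% of all genes). Their part in the Emp1 difference was not tested. In RNA from whole cultures, fewer cells of a type and less RNA per cell cannot be told apart.

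**Figure D3:**
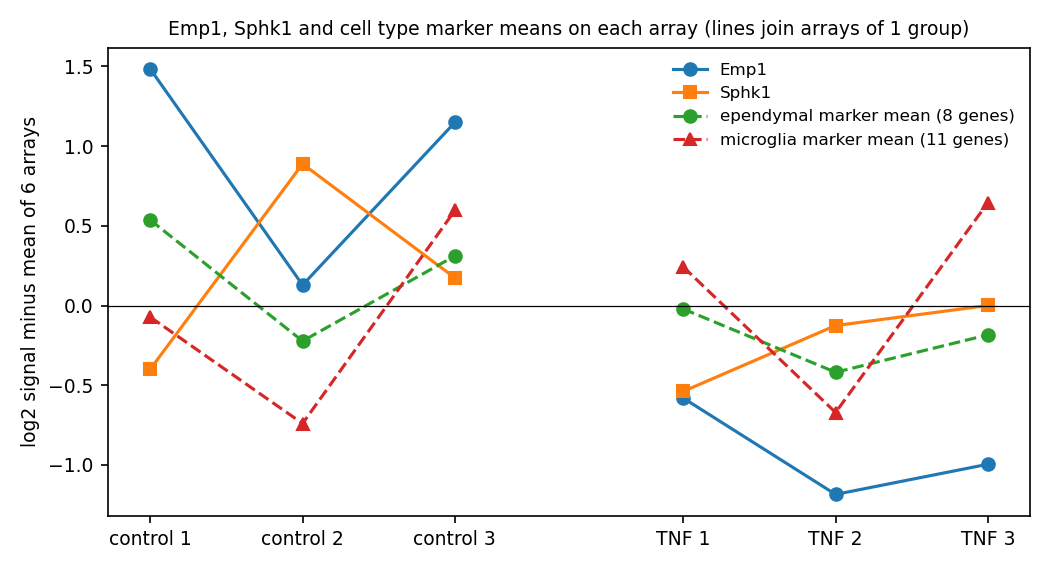
Log2 signal on each array, relative to the mean over 6 arrays, of Emp1, Sphk1, the mean of 8 ependymal markers and the mean of 11 microglia markers; lines join arrays of 1 group. In both groups Emp1 and the ependymal mean are lowest in replicate 2, while Sphk1 peaks in control 2.

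The family of Emp1 moved unevenly. Pmp22, the peripheral myelin protein that names the family, was 12.97, 12.80 and 12.80 in controls and 12.05, 11.88 and 11.64 with TNF, with no overlap. Its difference was -0.999 (SE 0.14, adjusted p = 0.00471), and the call held with any single array left out (highest adjusted p = 0.0273). Emp2 differed by -0.40 (adjusted p = 0.167) and was called lower with the replicate block (adjusted p = 0.0116). Emp3 differed by 0.09, with a 95% interval from -0.24 to 0.42. In all, 2 of the 4 family members fell; 1 did without control 1, control 3, TNF 2, replicate 2 or replicate 3, and none without replicate 1 in both groups.

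Cd109 had the smallest spread among the 8 markers. It encodes a membrane-anchored protein of the alpha-2-macroglobulin family that binds TGF-beta and its receptors and restrains their signal. The controls were 11.07, 11.07 and 11.16, and the TNF samples 10.07, 9.82 and 9.66. The lowest control lay 1.00 above the highest TNF sample, whereas the controls spanned 0.097. Its difference was -1.25 (SE 0.13, n = 3 per group, adjusted p = 0.00135), a 2.38-fold lower signal. The call held in every fit without 1 array (adjusted p from 0.00202 to 0.0102) and without replicate 3 (0.0207).

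Other alpha-2-macroglobulin family genes were not called. A2m, the secreted protease inhibitor of the family, differed by -0.03 (95% interval -0.40 to 0.34). C4b, a complement component with the same fold, was 8.87, 8.07 and 8.81 in controls and 9.06, 9.10 and 9.53 with TNF, a difference of 0.65 (adjusted p = 0.176), with a blocked adjusted p of 0.0209. Of 10 measured TGF-beta ligands, receptors and signal carriers, 4 rose and none fell at the same threshold. They were Smad3, which carries the signal to the nucleus (0.82, adjusted p = 0.00566), the ligands Tgfb3 (0.79, 0.0142) and Tgfb1 (0.63, 0.0438), and the receptor Tgfbr2 (0.55, 0.0391). The other receptor chain, Tgfbr1, differed by -0.26 (adjusted p = 0.367). Only 1 of the 4 calls was made without TNF 2 or replicate 3, 2 without control 1, 2 or 3 or TNF 3, and none without replicate 1 or 2 in both groups.

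Tgm1 encodes a membrane-bound transglutaminase that crosslinks proteins and is best known from the outer layer of skin. Its signals were 7.17, 7.35 and 7.30 in controls and 8.20, 7.70 and 7.76 with TNF, and the gap between the groups was 0.35. The difference was 0.61 (SE 0.15, 95% interval 0.26 to 0.97, 1.53-fold), with an adjusted p of 0.0559, and all 3 pairs were positive. Tgm1 was called higher with the replicate block (adjusted p = 0.0169), with quantile normalization of the genes tested (0.0295) and with array weights (0.0403). TNF 1 gave the highest value, and without it the difference was 0.46.

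Among the 10 transglutaminase genes Tgm2, the widespread tissue transglutaminase, rose and no other gene was called. Tgm2 was 8.68, 8.29 and 9.00 in controls and 10.73, 10.90 and 11.40 with TNF. Every TNF array lay over 1 log2 unit above every control. The difference was 2.36 (SE 0.23, n = 3 per group, adjusted p = 8.94e-04), or 5.13-fold, and the call held without each array (highest adjusted p = 0.00765). The other genes of the family, Tgm1 aside, differed by between -0.21 and 0.12. Of the 10 genes, 9 lay under the median gene signal, Tgm1 among them, so small differences there are hard to read.

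S100a10 encodes p11, a small protein that pairs with annexin A2 under the plasma membrane and there binds plasminogen. Its signals were 12.29, 12.29 and 12.09 in controls and 11.70, 12.13 and 11.52 with TNF. TNF 2 lay above control 3, so the groups overlapped, while each TNF sample was below the control of its number. The difference of -0.44 (SE 0.17, unadjusted 95% interval -0.83 to -0.05) had an adjusted p of 0.202. The blocked fit called S100a10 lower (adjusted p = 0.0233).

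Anxa2, the annexin partner of S100a10, differed by -0.42, with groups that did not overlap. Its controls were 11.68, 11.52 and 11.59 and its TNF samples 11.22, 11.23 and 11.08 (adjusted p = 0.0598; 0.0116 with the block). None of the 9 annexin and plasminogen genes was called, and at an unadjusted p under 0.05 Plaur was higher and Anxa2 lower; Anxa2 was also called lower without dim genes (adjusted p = 0.023), with trend and robust variance (0.017), with quantile normalization (0.0348) and with array weights (0.0335). No fit with fewer arrays called it (adjusted p from 0.12 to 0.346). Plaur, the urokinase receptor, differed by 0.65 (adjusted p = 0.0736; 0.00182 with the block), and was called higher with quantile normalization (0.0494) and array weights (0.0246). The plasminogen activator Plat differed by -0.24. Of 14 S100 genes, 11 had negative differences and 1, S100a16, was called lower at -0.45 (adjusted p = 0.0405); leaving out any single array ended that call (adjusted p up to 0.156). With the block 4 S100 genes were lower: S100a16, S100a10, S100a6 and S100b.

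Clcf1 encodes cardiotrophin-like cytokine factor 1, a gp130 family cytokine that signals through the CNTF receptor. The controls were 10.11, 10.20 and 10.68 and the TNF samples 10.09, 10.11 and 10.28. The groups overlapped, and replicate 3 was the highest of both. The difference was -0.17 (95% interval -0.55 to 0.21, adjusted p = 0.745), and without control 3 it was 0.0054.

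Around Clcf1, 2 other ligands and 2 receptors of the family rose. Of 7 measured gp130 cytokines 2 were called higher: Il6, an inflammatory cytokine, by 1.77 (adjusted p = 0.00359) from control signals of 3.51, 3.83 and 3.49, and Lif, leukaemia inhibitory factor, by 1.02 (adjusted p = 0.0133). The Il6 control signals lay under the lower quartile of every array and may be background, so the size of its difference is uncertain. Lif lost its call without control 1 (adjusted p = 0.0575) and without replicate 3 (0.107), and neither cytokine was called without replicate 1 in both groups. Of 5 receptor genes 2 rose. Cntfr, the receptor chain that Clcf1 binds, went from 8.65, 8.95 and 8.81 to 9.58, 9.83 and 9.70, with no overlap, a difference of 0.90 (SE 0.13, adjusted p = 0.00538). Osmr, the oncostatin M receptor, rose by 0.92 (adjusted p = 0.00564), and Il6ra and Lifr differed by 0.54 and 0.48 and passed with the block. The shared chain Il6st, gp130 itself, differed by -0.10 (95% interval -0.47 to 0.27). Without TNF 3 there were 3 receptor calls, without replicate 3 in both groups 1, and without replicate 1 or 2 none.

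Of 10 genes listed for JAK-STAT3 signalling, 5 rose and none fell. Whether they rose through these receptors or by another route of TNF was not tested. Bcl3, an NF-kB cofactor, rose by 2.46 (adjusted p = 1.82e-04) and the AP-1 subunit Junb by 1.83 (4.25e-04). The kinase Tyk2 rose by 0.83 (adjusted p = 0.00589) and Stat3 by 0.58 (0.0133). Stat3 lost its call in 4 of 6 fits without a single array (highest adjusted p = 0.0604). Without replicate 3 in both groups neither Tyk2 (0.0602) nor Stat3 (0.0508) was called. Jak2 rose by 0.61 (adjusted p = 0.0347), a call that ended with any single array left out. Socs3, the feedback inhibitor of STAT3 signalling, differed by 0.35 (adjusted p = 0.266; 0.0259 in the blocked fit). The count of 5 fell to 3 without control 1, control 3, TNF 1 or TNF 2, and to 2 without replicate 2 or 3 in both groups.

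Sphk1 encodes sphingosine kinase 1, which makes the signalling lipid sphingosine 1-phosphate. Its controls were 7.64, 8.92 and 8.21 and its TNF samples 7.50, 7.91 and 8.04. The values overlapped widely, and control 2 stood highest. The difference was -0.44 (SE 0.31, 95% interval -1.16 to 0.27, adjusted p = 0.568), and it shrank to -0.11 without control 2. The related kinase Sphk2 differed by 0.12 and the lyase Sgpl1, which destroys the lipid, by 0.07. None of 12 enzymes, transporters and regulators of this lipid was called, and 1 was higher and 1 lower at an unadjusted p under 0.05, shares near the 9.15% and 9.73% of all genes. The exporter Spns2 (0.38) and the ceramidase Asah2 (0.42) passed as higher, and the ceramidase Acer3 (-0.54) and the phosphatase Sgpp1 (-0.33) as lower, with the block.

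Of the 5 receptors for sphingosine 1-phosphate, 2 rose. S1pr3, also counted among pan-reactive genes, went from 12.16, 11.38 and 11.90 to 12.86, 12.81 and 12.85, a difference of 1.03 (SE 0.19, adjusted p = 0.0182). S1pr2 went from 8.77, 8.72 and 8.96 to a mean of 9.56 ± 0.10 (SD, n = 3), a difference of 0.74 (SE 0.12, adjusted p = 0.00973). In both, all TNF arrays lay above all controls. S1pr3 lost its call without control 3, TNF 1 or TNF 2 (highest adjusted p = 0.0592) and without replicate 3 (0.129), and no receptor was called without replicate 1 or 2 in both groups. S1pr5 differed by -0.30 (adjusted p = 0.281) and was called lower in the blocked fit (0.0439). S1pr1, the main receptor of endothelium and lymphocytes, differed by 0.18 (95% interval -0.34 to 0.69).

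**Figure D4:**
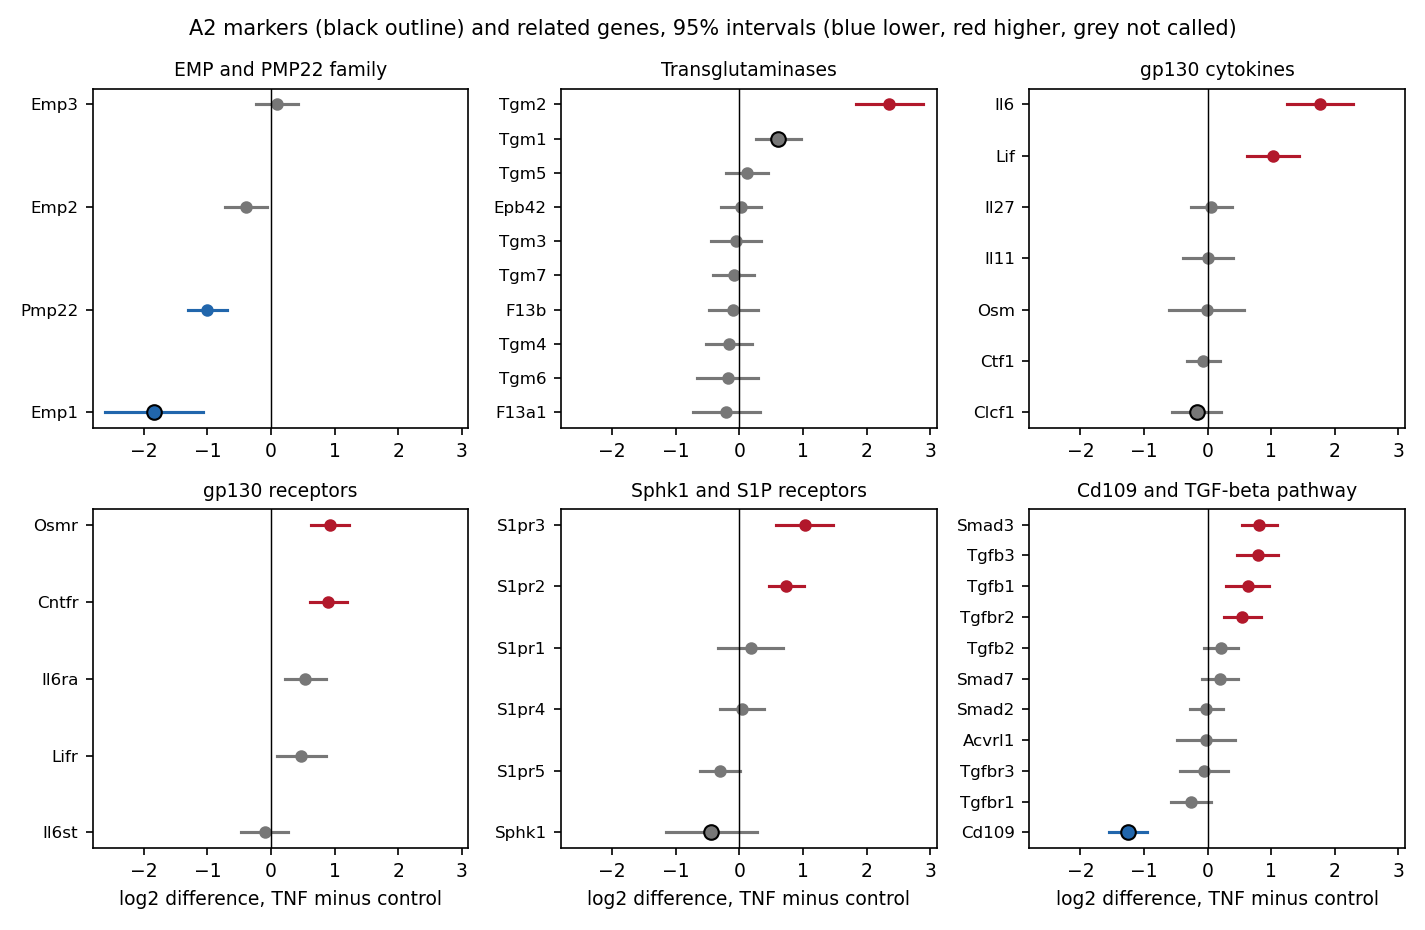
Log2 differences, TNF minus control, with 95% intervals for A2 markers (black outlines) and related genes in 6 families or pathways. Tgm2, Il6, Lif, Osmr, Cntfr, S1pr2, S1pr3 and 4 TGF-beta genes are called higher, and Emp1, Pmp22 and Cd109 lower.

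Tm4sf1 encodes an L6 tetraspan protein known from endothelium and tumour cells. Its signals were 10.69, 10.74 and 11.24 in controls and 10.95, 11.31 and 11.42 with TNF. Each TNF sample was above the control of its number, by 0.25, 0.56 and 0.18, but control 3 lay above TNF 1. The difference was 0.33 (SE 0.19, 95% interval -0.11 to 0.77, adjusted p = 0.438; 0.0518 with the block). The 4 other L6 genes lay under the median gene signal and differed by between -0.09 and 0.09, and none of the 5 had an unadjusted p under 0.05. All 10 endothelial markers lay under the median gene signal, with list means from 6.16 to 6.41 in controls and from 6.02 to 6.44 with TNF. In both groups this mean was lowest in replicate 1 and highest in replicate 3, the order of the Tm4sf1 signals. The means of the fibroblast and mural, oligodendrocyte lineage and neuron markers had the same order. A link between Tm4sf1 and any of these lists was not tested.

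Slc10a6 encodes a sodium-dependent carrier of sulfated steroids. Its signals lay under the median over genes, at 4.81, 4.68 and 5.22 in controls and 4.80, 5.08 and 5.08 with TNF. The groups overlapped, and the difference was 0.08 (95% interval -0.30 to 0.47, adjusted p = 0.917). No detection calls were used here, so whether the transcript was present cannot be read from these values. None of the 6 measured SLC10 genes was called, with or without the block, and none had an unadjusted p under 0.05.

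The published A2 panel also holds Ptx3, Cd14, Ptgs2 and B3gnt5, and there 2 of 4 rose. Ptx3, a soluble pattern recognition protein, went from 7.15, 7.23 and 6.96 to 10.39, 10.81 and 11.18, a difference of 3.68 (SE 0.20, adjusted p = 6.49e-05). Cd14, a co-receptor for endotoxin, rose by 0.71 (adjusted p = 0.0211) and lost the call without control 1, control 2, TNF 1 or TNF 2 (highest adjusted p = 0.0805). Ptgs2, cyclooxygenase-2, differed by 0.29 (adjusted p = 0.674; 0.0422 with the block) and B3gnt5, a glycosyltransferase, by -0.29 (adjusted p = 0.756). Over the whole panel of 12 genes, 2 rose, 2 fell and the median difference was -0.04.

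Counts for the other classes of reactive genes are given beside these, with no test of a difference between classes. Of 13 pan-reactive genes 8 rose and none fell, with a median difference of 0.92. The blocked fit called 9 higher and 2, Gfap and Hspb1, lower. Gfap, an intermediate filament gene also counted among the astrocyte markers, differed by -0.51 (adjusted p = 0.42, and 0.00356 blocked). The heat shock protein gene Hspb1 differed by -0.45 (adjusted p = 0.449, and 0.0145 blocked). The 8 genes called higher in the main fit included Lcn2 at 4.36 and Timp1, an inhibitor of metalloproteinases, at 2.46. The count was between 6 and 9 without single arrays, and 4 or 5 without 1 replicate number in both groups. Of 7 measured A1 genes 4 rose, among them Psmb8 at 3.82 and Iigp1 at 4.80, and 1, Fbln5, fell by 1.47; 2 rose without control 2, TNF 3, replicate 2 or replicate 3, and Fbln5 lost its call without replicate 1 in both groups.

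**Figure D5:**
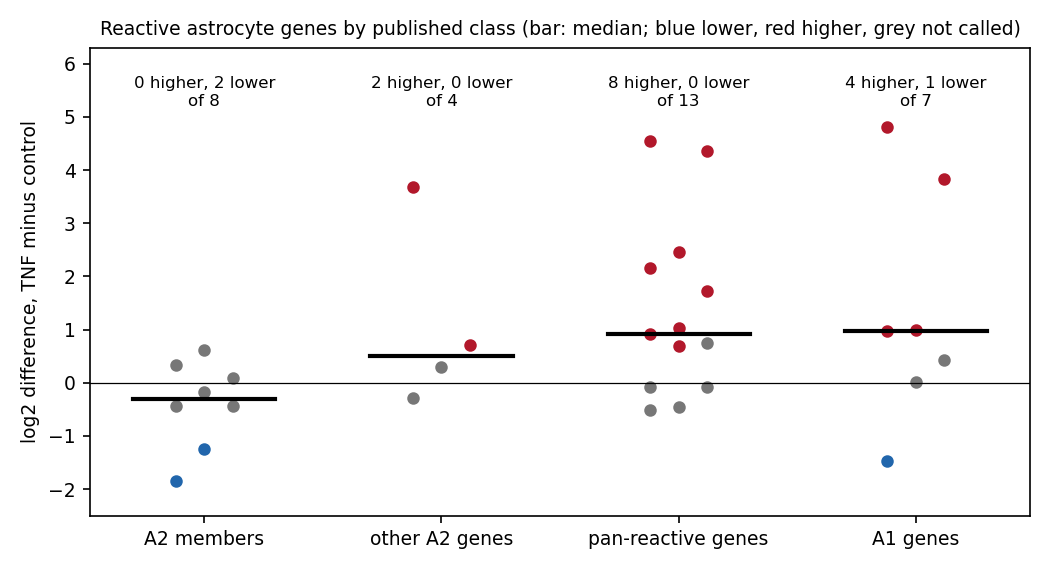
Log2 differences, TNF minus control, of reactive astrocyte genes in 4 groups: the 8 members, the 4 other A2 genes, 13 pan-reactive genes and 7 A1 genes; bars are medians and colours give the limma call. The medians are -0.31, 0.50, 0.92 and 0.97, and the 8 members hold no gene called higher.

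The cultures carried the label of astrocytes, and 10 of 12 astrocyte markers lay above the median gene signal; S100b and Gjb6 did not. Of these 12, 4 fell (Aldoc, Glul, Fgfr3 and Gja1), and 7 were lower and 2 higher with the block. The 2 higher were the transporter Slc1a2 and the water channel Aqp4, each at 0.60 with no overlap (adjusted p = 0.0617 and 0.0718 without the block). Without 1 replicate number in both groups 1 or 2 fell, and Gja1 lost its call in 3 of 6 fits without a single array. Among markers of other cells, 1 of 12 fibroblast and mural markers (Acta2, -0.96), 1 of 10 endothelial markers (Kdr, -0.91) and 1 of 9 oligodendrocyte lineage markers (Olig1, -1.21) fell, and of 10 neuron markers 1 rose (Gap43) and 1 fell (Map2). Acta2 lost its call without control 1, 2 or 3 (adjusted p up to 0.0632) and without each replicate number, while 3 fibroblast and mural markers, with Tagln and Pdgfrb, were lower with the block. Gap43 lost its call in 5 of 6 fits without a single array. Without replicate 1 in both groups Kdr, Olig1 and Map2 were not called either. Kdr was also not called without replicate 2 in both groups, and Olig1 not without replicate 3 (adjusted p = 0.067). The fibroblast and mural mean ran from 8.37 to 8.58 in controls and from 8.09 to 8.48 with TNF. Under the median gene signal lay 5 of 12 fibroblast and mural, 7 of 9 oligodendrocyte lineage, 8 of 10 neuron and 8 of 11 microglia markers. Some markers of other cells gave high signals, with control means of 13.37 for Acta2, 12.63 for Tagln, 12.09 for Stmn2 and 11.29 for Olig1. These array values have no 0, so no marker can be called absent. Arrays of replicate 3 had a narrower spread of signals: their lower quartiles were 6.27 and 6.33, against 6.01 to 6.09 on the 4 other arrays.

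For each marker, the 2 genes with the most similar profile over the 6 arrays were found by Pearson correlation, as a description of these arrays that share 1 treatment contrast. Cd109 was closest to Chpt1 (r = 0.999) and Gpm6a (0.998), and Emp1 to Lzts3 (0.997) and Kdm6b (0.996). The closest genes were Cdhr1 and Plaat1 for Tgm1, Nln and Kat6a for S100a10, Depdc7 and Pcdh17 for Sphk1, Jph3 and Gp2 for Clcf1, Srpx2 and Sct for Tm4sf1, and Hoxd4 and Wfdc9 for Slc10a6, with r from 0.976 to 0.998. With 6 points high values are common: 367 genes exceeded 0.95 with Cd109 and 245 with Emp1.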

How the data were processed

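The authors deposited log2 signals of 35544 probe sets for each of 6 arrays, made with RMA (background correction, quantile normalization, probe summary) per the submitters' processing notes; limma is named there too, without a version. Base 2 was inferred from the range, 2.04 to 14.37. RMA shrinks large fold changes and the differences of dim genes. The number of arrays limits the precision.

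Probe sets with exactly 1 gene symbol in the platform annotation (21777; 1621 had several, 12146 none) were kept, 1 per gene by the highest mean, which gave 19926 genes. Sample titles gave each group and number. Differences were tested with limma 3.58.1 in R 4.3.3 (lmFit, eBayes; 4 residual degrees of freedom plus 3.70 from the prior), two-sided, with Benjamini-Hochberg adjustment over all genes; 95% intervals are unadjusted. Python 3.11.15 drew the plots. The fit was checked on simulated data with independent noise on each array, so the check does not cover deviations shared by same-numbered samples.

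Same-numbered samples also share a prefix in their descriptions, and they deviated from their group means together (correlations 0.55, 0.65 and 0.75). Numbers were therefore taken as pairs in the blocked fits and in the differences within a number. No pairing is stated, so the main fit has no block, and this shared deviation stays within its errors. The median SE over all genes was 0.14 in that fit and 0.087 with the block. The markers and the lists of related genes, which were written from general knowledge, were chosen with earlier results of these data known. Named were all 8 markers, up to 4 genes of each list with the smallest p, close relatives and partners of a marker, and the 2 most similar genes; Jak2, Socs3, S1pr5, Gfap, Hspb1 and single cell type markers were named after their values were seen. Gene symbols without a probe set of their own were not analysed here.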

Additional observations from a re-analysis of the deposited data

How the results depend on the processing

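Cd109 kept its call and direction in all 19 alternatives tried. Clcf1, Sphk1 and Tm4sf1 in all 19 and Slc10a6 in all 18 were not called. Each marker had 1 probe set of its own, so the alternatives on the choice of probe set could not change its difference. Nor could trend and robust variance, either replicate block or leaving out dim genes, which change only errors and adjustment. Emp1 lost its call in 5 of 19, each with fewer arrays; Tgm1 gained one in 4 of 18 and S100a10 in 2 of 19, and no called value changed sign. The count of markers called higher was 1 instead of 0 with the replicate block (fixed or random), quantile normalization and array weights, in each case Tgm1. The count called lower was 3 with either replicate block, 1 at an adjusted p under 0.01, and 1 to 2 without arrays. At an unadjusted p under 0.05, Tgm1 alone was higher. The cause of these shifts was not tested.

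Over all genes, the main fit called 771 higher and 663 lower. These were 1938 and 2351 with the replicate block, 2231 and 2471 with it as a random effect, 386 and 195 at an adjusted p under 0.01, and 365 and 200 at a log2 difference of at least 1. Over all probe sets 436 were lower. Without 1 array or 1 number they ranged from 273 to 669 higher and from 106 to 455 lower; leaving out number 1 or 2 in both groups was added after the data were seen.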

Other observations

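The 8 markers differed in which replicate stood highest. Clcf1, Slc10a6 and Tm4sf1 were highest in replicate 3 of both groups. S100a10 was highest in replicate 2 and Emp1 in replicate 1 of both groups. Sphk1 was highest in control 2 but in TNF 3, and Cd109 in control 3 but in TNF 1. The spread within groups (pooled SD) was 0.15 for Cd109 and 0.20 to 0.28 for Tgm1, Clcf1, Slc10a6, S100a10 and Tm4sf1. It was 0.50 for Sphk1 and 0.54 for Emp1.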
